A study of Homo sapiens with 12 samples.

Results

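The 10 genes described here, out of 19777 genes measured, include those of the NF-kB transcription factor subunits NFKB1, NFKB2, REL, RELA and RELB. The others encode the inhibitors NFKBIA, NFKBIE and TNFAIP3, the atypical nuclear member of the inhibitor family NFKBIZ, and the activating kinase IKBKB. All 10 were listed by name, with earlier results of these data known. Each was read from its brightest single-gene probe set, judged on the 12 arrays together. NF-kB dimers are held inactive by inhibitors of the IkB family. The IkB kinase complex phosphorylates the inhibitor, which is then degraded, and the released dimer enters the nucleus and switches on genes of inflammation and survival, among them the genes of its own inhibitors. In monocytes and macrophages this loop drives cytokine and chemokine production.

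The study measured total RNA of U937 cells, a human myeloid line of monocytic character, on Affymetrix U133 Plus 2.0 arrays. There were 4 groups of 3 biological replicates each. U937_EVI1 cells, transduced with an expression vector for the zinc finger transcription factor EVI1, received 50 ng/ml of TPA, a phorbol ester and activator of protein kinase C, for 24 h, and U937_vec cells, transduced with the empty vector, received the same TPA. The other groups were U937_EVI1 cells and U937_vec cells given the solvent, ethanol (EtOH), for 24 h. All 4 groups are 1 cell line, each population carries a vector, and the labels do not say whether a population is 1 clone or a pool.

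Values are log2 RMA expression values, in which a step of 1 is a doubling of array signal. The 5 probe sets for MECOM, the locus that encodes EVI1, read between 2.59 and 3.32, and the smallest adjusted p between the populations was 0.118. Where these probe sets lie relative to the vector's transcript was not compared, so the populations are called EVI1 cells and vec cells by their labels. The mean over 8 monocyte and macrophage markers was 7.52 to 7.90 on the EVI1 TPA arrays, 8.17 to 8.55 on the vec TPA arrays, 6.63 to 6.72 on the EVI1 EtOH arrays and 6.69 to 6.82 on the vec EtOH arrays. With TPA, 4 of the 8 rose and 2 fell in EVI1 cells, and 6 rose and 2 fell in vec cells. Of all genes, 19.4% rose and 20.6% fell in EVI1 cells, and 20.7% rose and 22.5% fell in vec cells. The markers that fell were MNDA, by -2.14 in EVI1 cells and -1.83 in vec cells, and LYZ, by -1.63 and -1.29. After TPA, 4 of the 8 were lower in EVI1 cells than in vec cells, where 5.30% of all genes were, CD14 by -1.70 ± 0.19 and ITGAM by -1.50 ± 0.20 (log2 difference ± SE). Over the 12 arrays, 7 lymphoid markers averaged 4.48 to 4.84, 8 fibroblast and epithelial markers 4.78 to 4.98, and 5 erythroid and megakaryocyte markers 5.59 to 6.06, against array medians of 5.07 to 5.11. The 3' to 5' signal gap of ACTB, a sign of RNA integrity and labelling, had a mean of 1.31 ± 0.17 over the TPA arrays and 1.85 ± 0.13 over the EtOH arrays (SD, n = 6 each; exact permutation test, two-sided p = 0.00216). The GAPDH gap was 0.40 ± 0.11 over the TPA arrays and 0.57 ± 0.15 over the EtOH arrays (p = 0.0476 by the same exact test), a call lost without any 1 of 10 arrays. The part of the markers and of the gap in the results below was not tested. In these bulk samples, fewer cells that express a gene and less RNA per cell cannot be told apart.

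Promoter sequences are shown for members whose response is described below, because NF-kB is known to act on its own genes through kB sites. RefSeq windows from 250 bases before to 50 bases after a start (GRCh38.p14) were matched by symbol for 7 of the 10 members. The promoters of RELB, NFKBIE and IKBKB were not analysed here. Each line gives the 250 bases before the start, 5′ to 3′ along the gene's strand, with matches to the kB consensus in capitals. The windows are chr14:35404750-35404999 on the minus strand for NFKBIA, chr6:137867009-137867258 on the plus strand for TNFAIP3, chr3:101827740-101827989 on the plus strand for NFKBIZ and chr4:102501109-102501358 on the plus strand for NFKB1.
NFKBIA: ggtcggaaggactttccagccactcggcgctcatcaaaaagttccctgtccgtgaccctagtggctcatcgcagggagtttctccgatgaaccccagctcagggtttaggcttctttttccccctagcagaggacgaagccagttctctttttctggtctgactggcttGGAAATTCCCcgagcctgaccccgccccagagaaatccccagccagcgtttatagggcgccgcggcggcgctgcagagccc
TNFAIP3: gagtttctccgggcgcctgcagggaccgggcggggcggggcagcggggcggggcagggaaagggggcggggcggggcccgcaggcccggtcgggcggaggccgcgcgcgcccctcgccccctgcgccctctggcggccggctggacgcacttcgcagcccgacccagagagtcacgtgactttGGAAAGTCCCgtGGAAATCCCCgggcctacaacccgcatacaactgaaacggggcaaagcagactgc
NFKBIZ: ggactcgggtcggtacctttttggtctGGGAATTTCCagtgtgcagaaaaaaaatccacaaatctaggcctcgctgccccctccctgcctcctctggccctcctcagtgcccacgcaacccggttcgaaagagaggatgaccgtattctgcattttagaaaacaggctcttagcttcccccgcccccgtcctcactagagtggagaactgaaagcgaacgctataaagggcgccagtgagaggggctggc
NFKB1: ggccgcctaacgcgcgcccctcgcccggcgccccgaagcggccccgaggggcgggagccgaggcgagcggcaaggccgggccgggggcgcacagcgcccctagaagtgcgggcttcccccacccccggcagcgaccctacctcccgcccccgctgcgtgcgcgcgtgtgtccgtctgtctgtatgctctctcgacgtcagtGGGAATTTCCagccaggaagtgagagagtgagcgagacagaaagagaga

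The kB consensus was searched on both strands and occurred in the windows of 6 of the 7 members, against 13.3% of the 27305 genes with a window. A stricter form, with T at both pyrimidine places, was also met in 6 members, against 4.04% of genes. Matches are given as they read along the gene. NFKBIA held 1 that began 81 bases before the start, GGAAATTCCC, in which the opposite strand matches. TNFAIP3 held 2 of that orientation, GGAAAGTCCC at 67 and GGAAATCCCC at 55 bases before the start. NFKBIZ held GGGAATTTCC at 223 bases before the start shown, and NFKB1 held the same 10 bases at 49. Before another of its starts, NFKBIZ held GGGGTTTCCC at 239 bases. REL held overlapping matches at 47 and 46 bases, GGGAAATTCC and GGAAATTCCC, 1 on each strand. NFKB2 held overlapping matches at 107 and 106 bases and GGGGCTTTCC at 78 bases before 1 of its starts. Before another it held GGGGCTTCCC at 176 and GGGACTTTCC at 21 bases. RELA held none in these windows. The AP-1 or TPA response element, spelled TGANTCA and also searched on both strands, was found in none of the 7 members' windows, against 9.37% of genes. These are matches of letters within the windows.

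**Figure D1:**
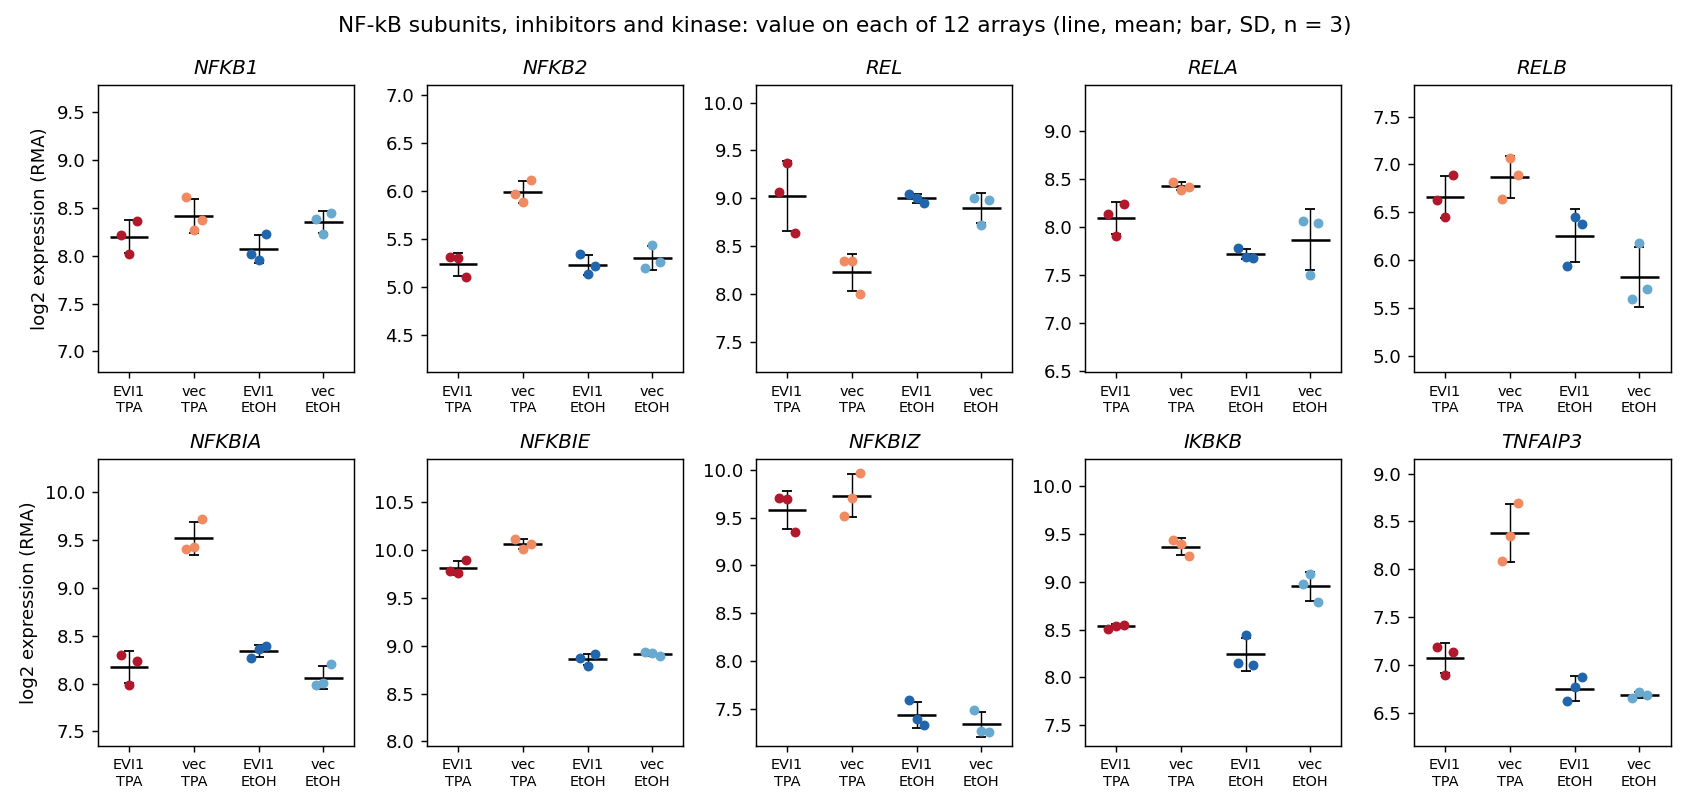
Log2 RMA expression (y axis, a scale of its own for each gene) of the 10 members on each array, by group (x axis); points are arrays, lines are means and bars are SD (n = 3). NFKBIA and TNFAIP3 stand higher on all 3 vec TPA arrays (lowest 9.41 and 8.09) than on every other array, and IKBKB is lower in EVI1 cells under both treatments.

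After TPA, vec cells had higher levels of 8 of the 10 members than after EtOH and a lower level of REL. EVI1 cells had higher levels of 4, NFKBIZ, NFKBIE, RELA and IKBKB. Of all genes, 40.0% were called at an adjusted p under 0.05 between TPA and EtOH in EVI1 cells and 43.2% in vec cells, 19.4% and 20.7% as higher with TPA and 20.6% and 22.5% as lower. The median log2 difference over the members was 0.30 in EVI1 cells and 0.87 in vec cells, against 0.00 and 0.02 over all genes. The response itself differed between the populations for NFKBIA, TNFAIP3 and NFKB2, all 3 with a lower response in EVI1 cells. Of all genes, 1.98% were called for this difference, 1.05% in that direction. TPA and EtOH arrays did not overlap for 5 members in EVI1 cells and 9 in vec cells, against 46.5% and 50.3% of all genes. The plot of limma differences shows these comparisons for each member.

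**Figure D2:**
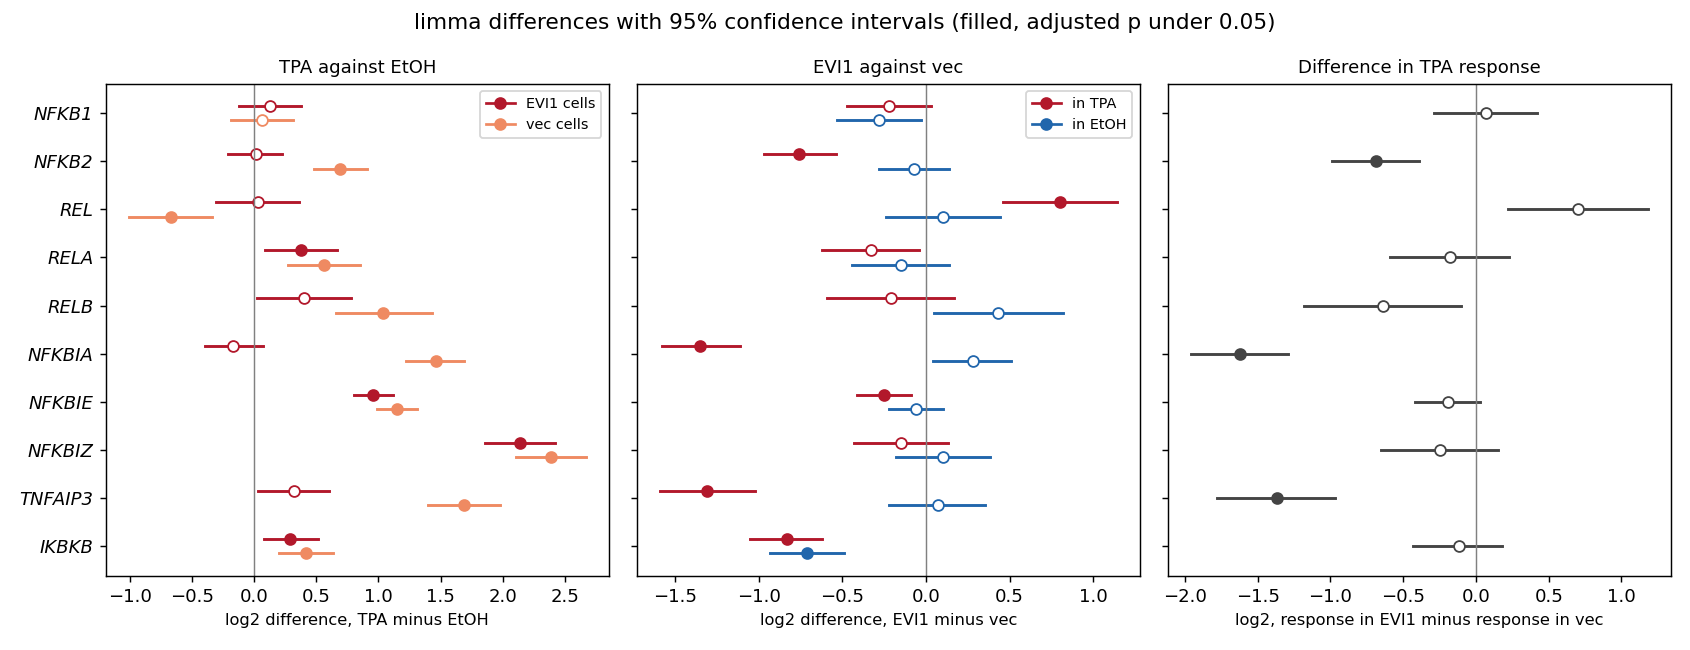
Log2 differences (x axis) of each member with 95% confidence intervals, for TPA against EtOH in each population, for EVI1 against vec cells under each treatment, and for the difference between the 2 TPA responses; filled points passed an adjusted p under 0.05. NFKBIA (-1.62), TNFAIP3 (-1.37) and NFKB2 (-0.69) are the filled points of the third panel, and IKBKB is filled and below 0 under both treatments in the second.

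NFKBIA encodes IkB alpha, the inhibitor that is degraded and made anew in each round of NF-kB activation. NFKBIA read 8.30, 7.98 and 8.24 on the EVI1 TPA arrays, against 9.41, 9.43 and 9.72 on the vec TPA arrays. With EtOH it read 8.27, 8.36 and 8.39 in EVI1 cells, against 7.98, 8.01 and 8.20 in vec cells. The vec TPA arrays were above all others, and the TPA and EtOH arrays of EVI1 cells overlapped. The log2 difference between TPA and EtOH was -0.17 ± 0.11 in EVI1 cells (SE; 95% interval -0.40 to 0.07; adjusted p = 0.28) and 1.46 ± 0.11 in vec cells (adjusted p = 6.16e-08), a 2.74-fold rise. The responses differed by -1.62 ± 0.15 (adjusted p = 0.000216). After TPA the EVI1 cells were lower than vec cells by -1.35 ± 0.11 (adjusted p = 6.8e-06). With EtOH the EVI1 arrays were all above the vec arrays, but the difference of 0.28 was not called (adjusted p = 0.274). The other NFKBIA probe set was dim, at a mean of 4.12, and its difference between responses was -0.13, with an adjusted p over all probe sets but controls of 0.854.

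TNFAIP3 encodes a ubiquitin-editing enzyme that shuts off signalling upstream of the IkB kinase. TNFAIP3 read 7.19, 6.89 and 7.13 on the EVI1 TPA arrays, against 8.09, 8.35 and 8.69 on the vec TPA arrays. Its EtOH values were 6.62, 6.77 and 6.87 in EVI1 cells, against 6.65, 6.72 and 6.69 in vec cells. The EtOH arrays of the populations overlapped, and the TPA arrays of EVI1 cells lay between the EtOH arrays and the vec TPA arrays. TPA raised TNFAIP3 by 1.69 ± 0.13 in vec cells (adjusted p = 9.47e-08), or 3.23-fold. In EVI1 cells the TPA and EtOH arrays did not overlap, but the difference of 0.32 ± 0.13 was not called (adjusted p = 0.077). The responses differed by -1.37 ± 0.19 (adjusted p = 0.00203), and after TPA the EVI1 cells were lower by -1.31 ± 0.13 (adjusted p = 3.36e-05). The second TNFAIP3 probe set gave a difference between responses of -0.96 ± 0.19 (adjusted p over all probe sets but controls = 0.0271), and its rise in EVI1 cells, 0.52, was called at 0.00636. The difference in EVI1 cells was thus positive with both probe sets and called with 1 of them. With the brighter one it was called in other settings, among them a fit of only the 2 groups (adjusted p = 0.0496), and a smaller rise than in vec cells was seen with both.

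NFKBIE encodes IkB epsilon, another cytoplasmic inhibitor. NFKBIE read 9.78, 9.76 and 9.90 on the EVI1 TPA arrays and 10.12, 10.01 and 10.06 on the vec TPA arrays, and between 8.79 and 8.93 on all 6 EtOH arrays. It rose in both populations, by 0.96 ± 0.07 in EVI1 cells (adjusted p = 1.02e-07) and 1.15 ± 0.07 in vec cells (adjusted p = 1.28e-08). The difference between the responses was not called, at -0.19 ± 0.10 (95% interval -0.42 to 0.03; adjusted p = 0.496). After TPA the EVI1 cells were lower by -0.25 ± 0.07 (adjusted p = 0.0452), a call that was lost when any 1 of 11 of the 12 arrays was left out, with adjusted p up to 0.151.

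NFKBIZ encodes IkB zeta, an atypical nuclear member of the family that acts with NF-kB dimers to switch on secondary response genes. NFKBIZ read 9.70, 9.69 and 9.35 on the EVI1 TPA arrays and 9.52, 9.70 and 9.97 on the vec TPA arrays. With EtOH it read 7.59, 7.40 and 7.33 in EVI1 cells and 7.49, 7.27 and 7.26 in vec cells. The populations overlapped under both treatments, and TPA and EtOH arrays were far apart in each. It had the largest TPA difference of the 10 members in both populations, 2.14 ± 0.13 in EVI1 cells (adjusted p = 8.83e-09) and 2.39 ± 0.13 in vec cells (adjusted p = 2.36e-09), folds of 4.41 and 5.24. The difference between these responses was -0.25 ± 0.18 (95% interval -0.65 to 0.15; adjusted p = 0.661). The second NFKBIZ probe set, at a mean of 6.36, rose by 1.24 ± 0.24 in EVI1 cells and 1.90 ± 0.24 in vec cells. Its responses differed by -0.66 ± 0.33, which was not called (adjusted p over all probe sets but controls = 0.546).

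Among the subunits, NFKB2, the precursor protein of the non-canonical pathway, had a called difference between the responses. NFKB2 read 5.31, 5.30 and 5.10 on the EVI1 TPA arrays, against 5.97, 5.89 and 6.12 on the vec TPA arrays. Its EtOH values were 5.34, 5.13 and 5.22 in EVI1 cells and 5.20, 5.44 and 5.26 in vec cells. Again the vec TPA arrays stood above all the others, which overlapped and lay close to the array medians. TPA raised NFKB2 by 0.69 ± 0.10 in vec cells (adjusted p = 3.66e-05), and in EVI1 cells the difference was 0.01 ± 0.10 (95% interval -0.21 to 0.22; adjusted p = 0.971). The responses differed by -0.69 ± 0.14 (adjusted p = 0.0234), and after TPA the EVI1 cells were lower by -0.76 ± 0.10 (adjusted p = 0.000207). The call on the responses was lost without any 1 of 5 arrays, with adjusted p up to 0.0735, and for the mean of all NFKB2 probe sets, at -0.26 (adjusted p = 0.208). The other NFKB2 probe sets, with means of 4.57 and 2.83, lie below the array medians.

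REL encodes c-Rel, a transactivating subunit of lymphoid and myeloid cells. REL read 9.07, 9.37 and 8.64 on the EVI1 TPA arrays, against 8.34, 8.34 and 8.0 on the vec TPA arrays. With EtOH it read 9.05, 9.0 and 8.95 in EVI1 cells and 9.0, 8.72 and 8.98 in vec cells. The vec TPA arrays were the lowest of the 12. REL fell by 0.67 ± 0.16 on the log2 scale with TPA in vec cells (adjusted p = 0.00254), and in EVI1 cells the difference was 0.03 ± 0.16 (adjusted p = 0.926). After TPA it was higher in EVI1 cells by 0.80 ± 0.16 (adjusted p = 0.00411), 1.74-fold. The test of the difference between the responses did not pass, at 0.70 ± 0.22 (95% interval 0.22 to 1.18; adjusted p = 0.155). That difference was called, at 0.89 with an adjusted p of 0.0149, when EVI1 TPA replicate 3, the lowest of its group, was left out. Of the 5 REL probe sets, the brightest 3 were lower with TPA in vec cells, by -0.67, -0.56 and -0.36, and higher in EVI1 cells after TPA, by 0.80, 0.60 and 0.59. Of the dimmer REL probe sets, 1 behaved otherwise, with a log2 difference between TPA and EtOH of -1.06 ± 0.29 in EVI1 cells (adjusted p over all probe sets but controls = 0.0103) and -0.40 in vec cells (0.34). On that probe set EVI1 cells differed from vec cells after TPA by -0.13 (0.892), and the responses differed by -0.66 ± 0.41 (0.66). Neither was called, and both are opposite in sign to those of the probe set used.

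RELA encodes the main transactivating subunit of the canonical pathway. RELA read 8.14, 7.91 and 8.24 on the EVI1 TPA arrays and 8.47, 8.39 and 8.42 on the vec TPA arrays. Its EtOH values were 7.78, 7.69 and 7.68 in EVI1 cells and 8.06, 7.50 and 8.04 in vec cells. It rose with TPA in both populations, by 0.38 ± 0.13 in EVI1 cells (adjusted p = 0.035) and 0.56 ± 0.13 in vec cells (adjusted p = 0.00306). The call in EVI1 cells was lost without any 1 of 5 arrays, with adjusted p up to 0.124. The second RELA probe set was called in neither population. After TPA the arrays of EVI1 cells lay below those of vec cells, but the difference of -0.33 was not called (adjusted p = 0.151).

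RELB encodes the partner of processed NFKB2 protein in the non-canonical pathway. RELB read 6.63, 6.45 and 6.89 on the EVI1 TPA arrays and 6.64, 7.07 and 6.89 on the vec TPA arrays. With EtOH it read 5.94, 6.45 and 6.38 in EVI1 cells and 5.59, 6.18 and 5.70 in vec cells. TPA raised it by 1.04 ± 0.18 in vec cells (adjusted p = 0.000198), and the difference of 0.40 ± 0.18 in EVI1 cells was not called (adjusted p = 0.0957). The responses differed by -0.64 ± 0.25 (95% interval -1.18 to -0.10), which was not called over all genes (adjusted p = 0.281). NFKB1, the precursor of the canonical DNA-binding subunit, ranged from 7.96 to 8.61 over all 12 arrays and was called in no comparison. Its difference between TPA and EtOH was 0.13 in EVI1 cells (adjusted p = 0.45) and 0.06 in vec cells (adjusted p = 0.723).

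IKBKB encodes the catalytic subunit of the IkB kinase that drives the canonical pathway, and was the member that was lower in EVI1 cells under both treatments. IKBKB read 8.51, 8.54 and 8.55 on the EVI1 TPA arrays, against 9.44, 9.39 and 9.27 on the vec TPA arrays. Its EtOH values were 8.15, 8.44 and 8.13 in EVI1 cells, against 8.98, 9.08 and 8.79 in vec cells. No EVI1 array reached the lowest vec array of either treatment. The log2 difference between EVI1 and vec cells was -0.83 ± 0.10 after TPA (adjusted p = 0.000124) and -0.71 ± 0.10 with EtOH (adjusted p = 0.0012). TPA raised IKBKB by 0.29 ± 0.10 in EVI1 cells (adjusted p = 0.0322) and 0.42 ± 0.10 in vec cells (adjusted p = 0.00356), and the responses differed by -0.12 ± 0.14, which was not called (adjusted p = 0.804). The rise in EVI1 cells was lost without any 1 of 5 arrays, with adjusted p up to 0.129, and for the mean of the probe sets, at 0.12 (adjusted p = 0.348). The second IKBKB probe set was also lower in EVI1 cells, by -0.82 after TPA and -0.62 with EtOH (adjusted p over all probe sets but controls = 0.000492 and 0.0117). The third was dim, at a mean of 4.05, and was not called, at -0.26 (0.45) and -0.20 (0.79).

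IKBKB lies on chromosome 8 among other genes that were lower in EVI1 cells. Of its 10 nearest measured genes in RefSeq order, 5 were lower in EVI1 cells after TPA and 4 with EtOH, and none was higher, where 11.2% and 3.27% of all genes were called. Their log2 differences ranged from -0.70 to 0.23 after TPA and from -0.73 to 0.16 with EtOH. SMIM19 was lower by -0.70 and -0.73, KAT6A by -0.61 and -0.66, SLC20A2 by -0.51 and -0.68, and VDAC3 by -0.41 and -0.43 after TPA and with EtOH. AP3M2 was called after TPA only, at -0.56. Whether a shift shared with these neighbours has a part in the IKBKB difference was not tested. None of the 10 had a called difference between the TPA responses in limma, where 1.98% of all genes did. For 1 of them the unadjusted p was under 0.05.

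**Figure D3:**
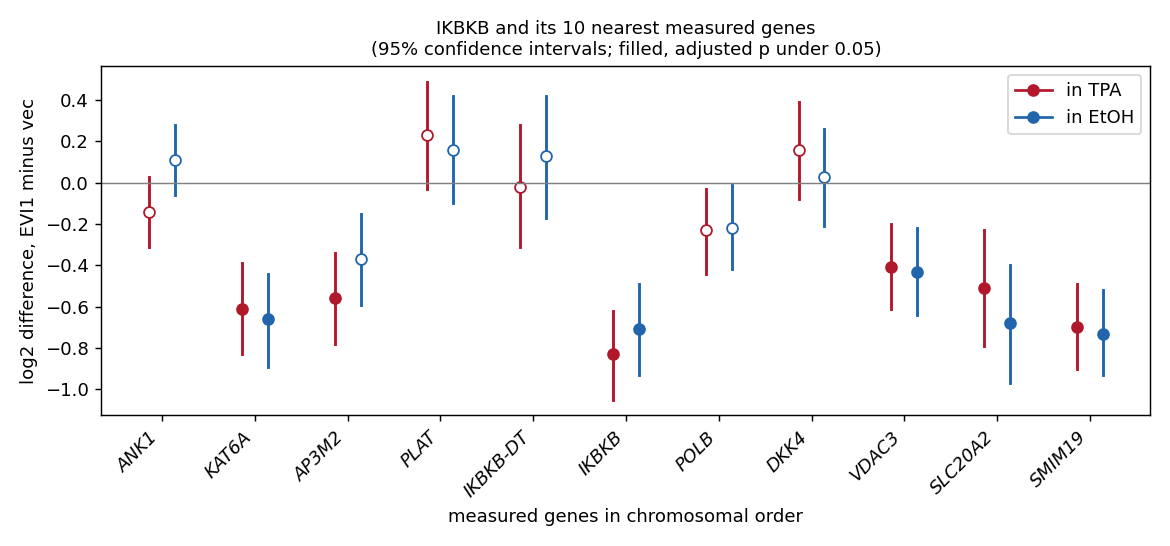
Log2 difference between EVI1 and vec cells (y axis) with 95% confidence intervals for IKBKB and its 10 nearest measured genes in chromosomal order (x axis, not to distance), in TPA and in EtOH; filled points passed an adjusted p under 0.05. IKBKB (-0.83 and -0.71) has the lowest values in TPA, and neighbours on both sides, KAT6A and SMIM19 among them, are also below 0.

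Between the populations, then, 6 of the 10 members were called after TPA: NFKBIA, TNFAIP3, IKBKB, NFKB2 and NFKBIE as lower and REL as higher in EVI1 cells, where 11.2% of all genes were called, 5.30% as lower and 5.90% as higher. With EtOH 1 member was called, IKBKB as lower, where 3.27% of all genes were called, 1.95% as lower and 1.32% as higher. The median log2 difference over the members was -0.29 after TPA and 0.01 with EtOH, against 0.01 over all genes in both. In arrays, groups did not overlap for 7 members after TPA, against 22.4% of all genes, and for IKBKB and NFKBIA with EtOH, against 22.0%. The comparisons after TPA share the vec TPA arrays with the TPA response of vec cells, so the 2 are not independent of each other. With the replicate number as a block, the same 6 members were called after TPA.

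Of 28 listed genes of the IkB kinase complex and its upstream adaptors and kinases, 22 were measured. With TPA, 15 rose and 2 fell in EVI1 cells, and 16 rose and 2 fell in vec cells, with median differences of 0.60 and 0.83. Of all genes, 19.4% rose and 20.6% fell in EVI1 cells, and 20.7% rose and 22.5% fell in vec cells. MALT1, the paracaspase that links protein kinase C to NF-kB in lymphocytes, rose by 2.10 ± 0.12 in EVI1 cells and 1.91 ± 0.12 in vec cells. MAP3K8, a kinase of the inflammatory MAP kinase pathway that is held by NFKB1 protein, rose by 1.69 ± 0.14 and 1.71 ± 0.14, and the adaptor TANK by 1.80 ± 0.11 and 1.70 ± 0.11. TRAF3, an adaptor that restrains the non-canonical pathway, fell by 1.20 ± 0.10 and 1.04 ± 0.10, and the adaptor TRAF5 by 0.81 ± 0.14 and 0.58 ± 0.14. None of the 22 had a called difference between the responses in limma, where 1.98% of all genes did, and 1 had an unadjusted p under 0.05. TRAF5 was higher in EVI1 cells after TPA, by 0.76 ± 0.14, and with EtOH, by 0.98 ± 0.14. After TPA, TAB2 was also higher, by 0.31, and TRAF3 and MAP3K7 lower, by -0.40 and -0.28, in EVI1 cells. Those 3 smaller calls were each lost without any 1 of 2 to 4 arrays.

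Of 21 other inhibitors and ubiquitin editors of the pathway, 19 were measured, of which 7 rose and 3 fell with TPA in each population. These 10 calls of 19 stand beside 40.0% of all genes called in EVI1 cells and 43.2% in vec cells, so the count is near that of all genes. NFKBID, a nuclear IkB protein, rose by 2.80 ± 0.17 in EVI1 cells and 2.77 ± 0.17 in vec cells. CYLD, a deubiquitinase that dampens signalling to the IkB kinase, rose by 1.33 ± 0.12 and 1.34 ± 0.12. IRAK2, which is on the list but is a kinase of interleukin 1 and Toll-like receptor signalling rather than an inhibitor, rose by 2.61 ± 0.14 and 3.15 ± 0.14. IRAK3, which inhibits that signalling, fell by 2.49 ± 0.23 and 3.35 ± 0.23, and the inhibitor NFKBIB by 0.38 ± 0.10 and 0.41 ± 0.10. None of the 19 had a called difference between the responses in limma, where 1.98% of all genes did, and 2 had an unadjusted p under 0.05. The other gene that fell was OTULIN, by 0.42 ± 0.09, in EVI1 cells, and TAX1BP1, by 0.36 ± 0.11, in vec cells. The TAX1BP1 call was lost without vec TPA replicate 1 (adjusted p = 0.051) or 3 (0.0566). After TPA, RBCK1, TNIP2 and OTUD7B were lower in EVI1 cells, by -0.42, -0.40 and -0.35, calls that were lost without any 1 of 4 to 9 arrays.

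Of 40 textbook target genes of NF-kB, 38 were measured, of which 24 rose and 1 fell with TPA in EVI1 cells and 26 rose and 1 fell in vec cells. Of all genes, 19.4% rose and 20.6% fell in EVI1 cells, against 20.7% and 22.5% in vec cells. The median difference was 0.74 in EVI1 cells and 0.85 in vec cells. The gene that fell was SOD2, by 1.58 ± 0.13 and 1.34 ± 0.13. On the probe set used it averaged 7.18 in EVI1 cells and 6.76 in vec cells with EtOH. With TPA it averaged 5.60 and 5.42, close to the array medians. The chemokine CCL2 rose by 5.19 ± 0.33 and 6.31 ± 0.33, and the early response gene IER3 by 5.50 ± 0.18 and 6.19 ± 0.18. The response differed between the populations for 13 of the 38. It was lower in EVI1 cells for 11, among them IL1B, CCL20, CCL4, TNF, CXCL8 and PTGS2, and higher for GADD45B and PLAU. Of all genes 1.98% were called for such a difference. Also among the 11, CCL5 had a TPA difference of -0.34 in EVI1 cells (adjusted p = 0.0922) and IL1A 0.22 (0.197), neither of them called. The count of 13 ranged from 8 to 15 when 1 array at a time was left out, with the CXCL8 call lost without any 1 of 8 arrays and the PTGS2 call without any 1 of 3.

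IL1B encodes the cytokine interleukin 1 beta. It averaged 11.01 ± 0.83 on the EVI1 TPA arrays and 13.71 ± 0.05 on the vec TPA arrays, against 6.04 and 5.63 with EtOH (SD, n = 3). It rose by 4.97 ± 0.28 in EVI1 cells and 8.09 ± 0.28 in vec cells, a difference of -3.12 ± 0.40 (adjusted p = 0.00134). The chemokine CCL20 averaged 8.11 ± 0.45 on the EVI1 TPA arrays and 10.59 ± 0.18 on the vec TPA arrays, and its responses differed by -2.43 ± 0.25 (adjusted p = 0.000336). The chemokine CCL4 averaged 7.04 ± 0.89 and 9.10 ± 0.16 on those arrays, with EtOH means below every array's median, and its responses differed by -2.38 ± 0.42 (adjusted p = 0.0104). In the other direction, GADD45B, a stress response gene, averaged 9.50 on the EVI1 TPA arrays and 8.98 on the vec TPA arrays, and its responses differed by 0.62 ± 0.10 (adjusted p = 0.0073). PLAU, the urokinase gene, averaged 9.30 and 8.85 and its responses differed by 0.52 ± 0.12 (adjusted p = 0.0491), a call lost without any 1 of 11 arrays. After TPA, 4 of the 38 were higher and 14 lower in EVI1 cells than in vec cells, where 11.2% of all genes were called. IL1B was lower by -2.70 ± 0.28, CCL20 by -2.48 ± 0.18 and the chemokine CXCL2 by -2.21 ± 0.24, and GADD45B was higher by 0.52 ± 0.07. With EtOH, the interferon regulatory factor IRF1 was higher in EVI1 cells, by 0.42 ± 0.10, and BCL2L1, a survival gene, lower, by -0.45 ± 0.08. The call was lost without any 1 of 5 arrays for IRF1 and without EVI1 EtOH replicate 1 for BCL2L1 (adjusted p = 0.0516).

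**Figure D4:**
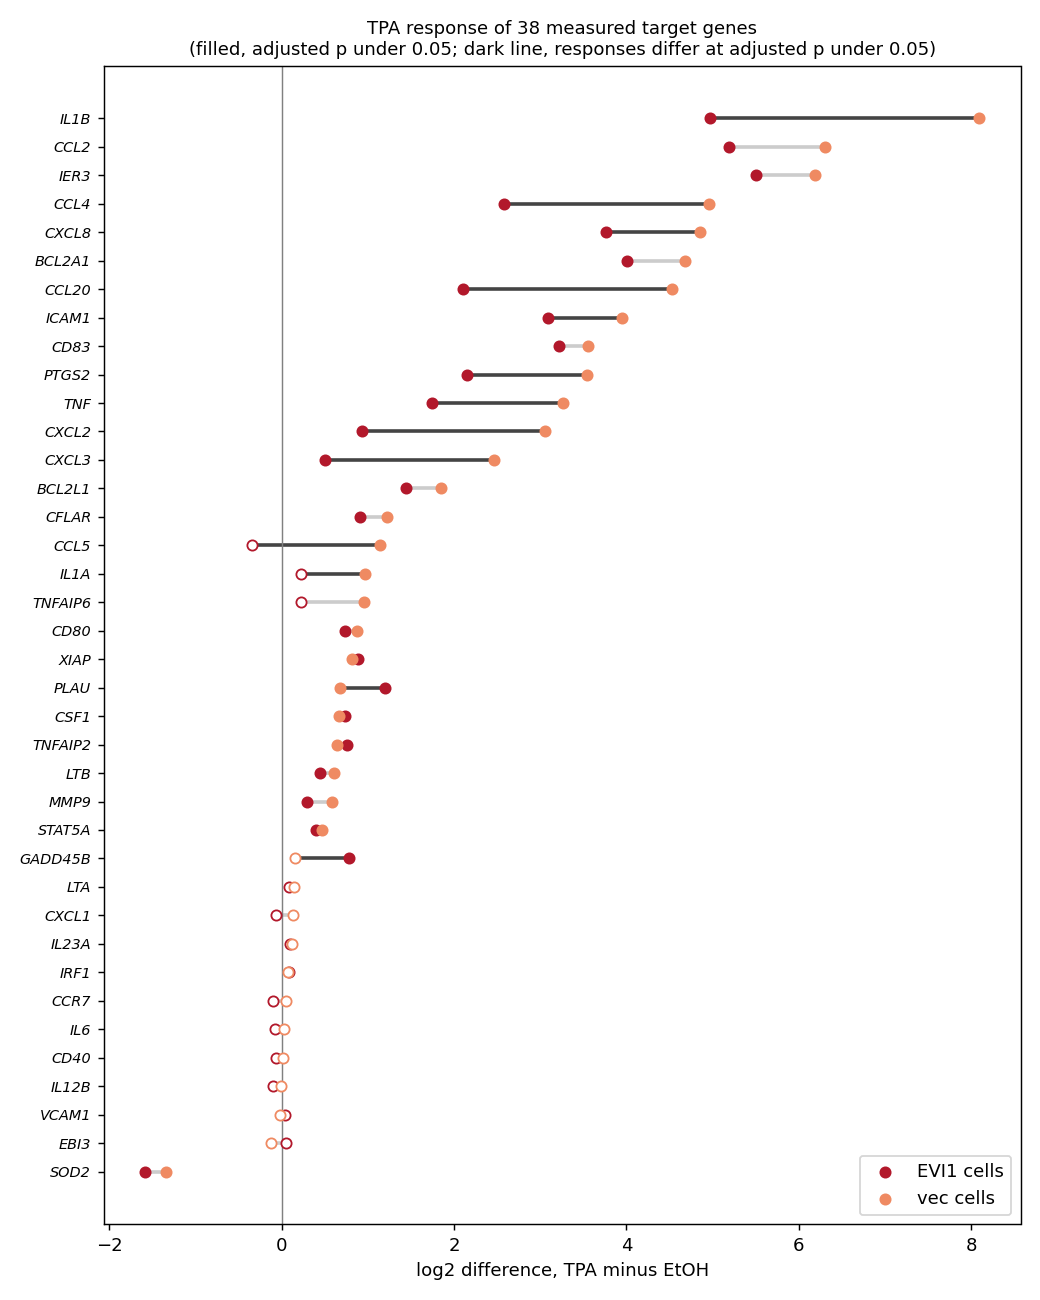
Log2 difference between TPA and EtOH (x axis) of the 38 measured target genes in EVI1 cells and in vec cells, ordered by the value in vec cells; filled points passed an adjusted p under 0.05 and dark lines join responses that differ at that threshold. For IL1B the response is 4.97 in EVI1 cells and 8.09 in vec cells, and GADD45B and PLAU are the dark lines with the higher point in EVI1 cells.

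The genes whose values followed each member most closely over the 12 arrays were found by Pearson's r among 9879 genes with means above the median of all gene means. The 12 arrays fall into 4 groups, so r mostly follows differences between groups, and it is given as a description. ABHD17C was among the 2 nearest genes of both NFKBIA (r = 0.979) and TNFAIP3 (r = 0.979), beside KDSR for NFKBIA (0.971) and HPSE for TNFAIP3 (0.982). NFKB2 was nearest to ZNF469 (0.952) and WIPF3 (0.925), and REL to RPAP2 (0.975) and ZNF627 (0.973). NFKBIE was nearest to ARNT2 (0.998) and ACOT9 (0.997), and NFKBIZ to ADCY7 and PTPRC (both 0.996). IKBKB was nearest to DSTN (0.987) and HYCC1 (0.966), RELA to DCTN5 (0.963) and PALS1 (0.956), and RELB to RUSC2 (0.946) and MGAT4A (0.935). The highest values for NFKB1, MED8 (0.920) and PSMC1 (0.890), were the lowest pair among the members.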

How the data were processed

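RNA of 12 U937 samples was measured on Affymetrix U133 Plus 2.0 arrays, labelled with biotin from 250 ng of total RNA per the labels' protocols. The deposited values are log2 RMA values of 54675 probe sets, which the submitters' processing notes credit to RMA in Affymetrix Expression Console 1.3, run by the authors. RMA sets the arrays to a common distribution, so values are relative to each array's whole signal, and a dim probe set understates a change. The number of arrays, 3 per group, limits the precision: the median SE over genes was 0.11. Probe sets of controls (62) or of no single gene were left out, and each of 19777 genes was read from its single-gene probe set with the highest mean. limma 3.58.1 (R 4.3.3) was fitted with 1 mean per group over 12 arrays and eBayes, two-sided, with Benjamini-Hochberg adjustment over all genes and a threshold of 0.05, and was tested on simulated data. Groups come from the sample titles.

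The members and lists were chosen with earlier results of these data known, so list counts are descriptions. Genes of the lists are named by size: of those called, up to 3 in each direction per comparison kept where the mean of the higher group was above 6.12, the median over all gene means. CXCL8, TNF, PTGS2, CXCL3, CCL5, ICAM1 and IL1A were named after their values were seen. Same-numbered TPA arrays of EVI1 and vec cells deviated together (correlations of 0.415, 0.130 and 0.151), so these numbers were taken, from the data, to pair those samples. Same-numbered arrays also had positive correlations between the EtOH groups (0.176, 0.143 and 0.0753). So did those of the 2 treatments in vec cells (0.157, 0.105 and 0.0795) and in EVI1 cells (0.145, 0.0913 and 0.208). The lowest of each was below the 0.130 of the TPA arrays, and these groups were not taken as paired. That line was itself taken from these values. Arrays of unlike number had correlations from -0.229 to 0.058 between the TPA groups and from -0.135 to -0.0207 between the EtOH groups. Between treatments they were -0.163 to 0.0579 in vec cells and -0.143 to 0.0217 in EVI1 cells. Whether the groups not taken as paired share a replicate effect was not tested. Alternatives were the mean of probe sets, leaving out dim genes, other scalings, fits of 2 groups, the replicate block and leaving out each array.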

Additional observations from a re-analysis of the deposited data

Results flagged for a closer look

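A test of the difference between the TPA responses of EVI1 and vec cells was made in the same fit over all genes. It was passed by 3 of the 10 members, by 13 of the 38 measured target genes and by 1 of the 8 monocyte markers. The share over all genes was 1.98%, 1.05% with a lower response in EVI1 cells and 0.935% with a higher one. Among the members the log2 difference, EVI1 minus vec, was -1.62 ± 0.15 for NFKBIA, -1.37 ± 0.19 for TNFAIP3 and -0.69 ± 0.14 for NFKB2 (SE). Among the target genes it was -3.12 ± 0.40 for IL1B, -2.43 ± 0.25 for CCL20 and -2.38 ± 0.42 for CCL4. It was -2.13 for CXCL2, -1.96 for CXCL3, -1.52 for TNF, -1.48 for CCL5, -1.39 for PTGS2, -1.09 for CXCL8, -0.86 for ICAM1 and -0.75 for IL1A. The calls for ICAM1, CXCL8 and IL1A were lost without any 1 of 7, 8 and 10 arrays. IL1A was dim, with group means from 3.81 to 4.78, below every array's median. Its call was also lost for the mean of its probe sets, at -0.50 (adjusted p = 0.229), and with array medians subtracted (0.0532). It was 0.62 ± 0.10 for GADD45B and 0.52 ± 0.12 for PLAU, with the larger rise in EVI1 cells. The monocyte marker CD14 differed by -2.06 ± 0.27 (adjusted p = 0.00179).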

How the results depend on the processing

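Over the member results, settings that left out 1 array kept direction and side of the threshold in 562 cases, with 26 calls lost, 5 gained and 7 changes of sign. The other settings kept 323, with 5 lost, 4 gained and 3 changes of sign. The calls for NFKBIA and TNFAIP3 on the difference between responses were kept in every setting run, and so were the IKBKB calls between populations. With the mean of each gene's probe sets, the sign changed for TPA in EVI1 cells of REL (-0.23) and NFKB2 (-0.05) and for TNFAIP3 in EtOH (-0.09). With 1 array left out the sign changed for NFKB1 with TPA in vec cells (range -0.03 to 0.14) and between the responses (-0.01 to 0.16), and for NFKB2 (-0.04 to 0.07) and REL (-0.15 to 0.22) with TPA in EVI1 cells, none of them called. NFKBIE after TPA lost its call with quantile normalization again (adjusted p = 0.0541), array medians subtracted (0.0539) and a fit of 2 groups (0.178). TNFAIP3 with TPA in EVI1 cells gained one with the mean of probe sets (0.0121), with dim genes left out (0.0488), which removed NFKB2, and in a fit of 2 groups (0.0496).

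With 1 array left out, the number of members called ranged from 2 to 5 for TPA in EVI1 cells. It was 2 without EVI1 EtOH replicate 1 or 3 or EVI1 TPA replicate 1 or 3. The number of all genes called ranged from 369 to 787 between populations in EtOH and from 188 to 681 for the difference between responses, and was 1241 after TPA in a fit of 2 groups, which has fewer arrays, against 2214. The GAPDH 3' to 5' gap differed between TPA and EtOH by -0.13 to -0.21, and lost its call without any 1 of 10 arrays. With the replicate block the members called were 9, 5, 1, 6 and 3 in the 5 comparisons, RELB with TPA in EVI1 cells being gained (0.40, adjusted p = 0.0485), and PLAU lost its call (0.053).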
